A study of Mus musculus with 11 samples.

Results

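Expression of 32 genes of G2 phase and mitosis was described in 11 tumours grown from 4T1 cells, a mouse triple-negative mammary carcinoma line, and measured by sequencing of poly(A) RNA from whole tumour tissue. The genes were taken as a fixed list of symbols, with no measured value in the rule, and all 32 were found among the 17181 symbols measured and passed the filter on low values. Both flanks of each mouse had been injected under the skin with 4T1 cells in matrigel, and treatment began at a tumour volume of about 100 mm3 and lasted 12 days. The host is named as NSG mice in the series' design and as a syngeneic model in its title, and the genotype is labelled WT for every sample. The 2 vehicle tumours (sodium lactate and corn oil with DMSO, also titled untreated) were compared with 3 tumours given OPG-Fc, 3 given palbociclib and 3 given both. OPG-Fc, an Fc fusion of osteoprotegerin that binds the cytokine RANKL, was injected intraperitoneally at 10 mg/kg 3 times a week, and palbociclib, which blocks the kinase activity of CDK4 and CDK6, was given by mouth at 30 mg/kg/day. Nothing states whether tumours of a group came from separate mice. In the library labels OPG-Fc replicates 2 and 3 share a first number, as do the combination tumours other than replicate 3. Whether this number marks a mouse is not stated. All tumours were treated as separate samples, so the SDs and p-values rest on the spread between samples that may share a mouse.

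Cells enter mitosis when the kinase CDK1, bound to cyclin B, is switched on by CDC25 phosphatases, and they leave it when the anaphase-promoting complex with its activator CDC20 destroys cyclin B. Most genes of this program are transcribed late in the cell cycle, when MYBL2 and then FOXM1 act with the MuvB complex at a promoter element called the cell cycle genes homology region (CHR). CCAAT boxes, bound by the factor NF-Y, lie beside it in many of these promoters. CDK4 and CDK6 act earlier, by phosphorylating RB at the exit from G1, so a cell halted there does not reach the stage at which these genes are on.

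The promoters of 6 members whose values are described below are shown because the CHR and CCAAT letters recur across the members' start sites. The sequences are from RefSeq on GRCm38.p6, span 250 bases before to 50 bases after the annotated start, and are printed 5′ to 3′ on the gene's own strand. Capitals mark the CHR, searched as TTTGAA or TTCGAA on both strands, and the CCAAT box, searched as CCAAT on both strands, so that TTCAAA and ATTGG are matches to the opposite strand.
Ccnb1, chr13:100786437-100786736, minus strand: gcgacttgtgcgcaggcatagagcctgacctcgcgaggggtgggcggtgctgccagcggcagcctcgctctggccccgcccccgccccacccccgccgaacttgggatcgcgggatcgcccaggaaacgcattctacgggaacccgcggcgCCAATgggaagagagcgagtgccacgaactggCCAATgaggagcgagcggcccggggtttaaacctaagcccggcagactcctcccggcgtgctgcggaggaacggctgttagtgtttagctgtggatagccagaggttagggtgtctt
Cdk1, chr10:69352863-69353162, minus strand: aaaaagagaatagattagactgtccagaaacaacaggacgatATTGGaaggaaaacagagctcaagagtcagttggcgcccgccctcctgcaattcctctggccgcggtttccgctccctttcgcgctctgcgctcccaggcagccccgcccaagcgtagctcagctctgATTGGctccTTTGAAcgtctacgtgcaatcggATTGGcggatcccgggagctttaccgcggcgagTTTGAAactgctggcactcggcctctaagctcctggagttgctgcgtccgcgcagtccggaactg
Plk1, chr7:122159185-122159484, plus strand: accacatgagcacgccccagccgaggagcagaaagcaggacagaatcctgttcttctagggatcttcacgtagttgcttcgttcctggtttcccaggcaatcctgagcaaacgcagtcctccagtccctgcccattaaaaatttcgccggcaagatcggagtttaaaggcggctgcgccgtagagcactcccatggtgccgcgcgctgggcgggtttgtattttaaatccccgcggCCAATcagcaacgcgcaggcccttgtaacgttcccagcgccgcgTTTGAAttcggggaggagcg
Cdc20, chr4:118437294-118437593, minus strand: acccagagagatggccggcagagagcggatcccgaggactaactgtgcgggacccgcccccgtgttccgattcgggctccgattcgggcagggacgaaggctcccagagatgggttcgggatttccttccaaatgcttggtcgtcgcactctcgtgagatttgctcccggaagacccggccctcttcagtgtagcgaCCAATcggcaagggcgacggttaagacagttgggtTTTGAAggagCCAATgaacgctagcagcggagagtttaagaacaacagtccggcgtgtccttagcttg
Kif11, chr19:37376132-37376431, plus strand: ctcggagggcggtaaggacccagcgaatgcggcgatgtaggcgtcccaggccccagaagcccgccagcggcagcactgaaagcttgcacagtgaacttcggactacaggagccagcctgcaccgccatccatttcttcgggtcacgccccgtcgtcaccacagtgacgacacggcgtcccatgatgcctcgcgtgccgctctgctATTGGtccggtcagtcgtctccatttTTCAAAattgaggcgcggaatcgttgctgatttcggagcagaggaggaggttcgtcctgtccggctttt
Anln, chr9:22389157-22389456, minus strand: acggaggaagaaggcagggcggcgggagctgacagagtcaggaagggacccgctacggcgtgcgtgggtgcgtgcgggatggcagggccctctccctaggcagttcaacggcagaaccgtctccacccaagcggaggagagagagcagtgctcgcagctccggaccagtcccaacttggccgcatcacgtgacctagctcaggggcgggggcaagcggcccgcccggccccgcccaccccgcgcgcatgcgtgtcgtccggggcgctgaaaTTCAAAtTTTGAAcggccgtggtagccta

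RefSeq windows were found for 26 of the 32 members, 28 windows in all, and none was used for Ccna2, Aurkb, Cdc25c, Kif20a, Tpx2 and Foxm1. CHR letters stood in 22 of the 28 windows (78.6%), against 19.2% of 32851 windows of all genes and 17.6% of 21263 windows of protein-coding genes. CCAAT letters stood in 19 of 28 (67.9%), against 37.4% and 38.2%. Both motifs were found in 17 of 28 windows (60.7%), against 7.52% and 7.11%, and no CHR match shared bases with a CCAAT match. The Cdk1 window held 2 CHR matches and 3 CCAAT matches, the Plk1 window 1 of each, the Ccnb1 window 2 CCAAT matches with no CHR match, and the Anln window 2 CHR matches with no CCAAT match. These are matches of letters in fixed windows, with no test and no measure of binding.

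Values are FPKM, fragments scaled for transcript length and for the fragments mapped in the library, as deposited, and read depth is unknown. Summed FPKM ranged from 576699 to 864670 per library. One control library, vehicle replicate 2, was unlike the remaining 10. The 10 epithelial markers, the labelled cell type, summed to 58.7 FPKM in it against 2818 to 4113 FPKM in the others, and Epcam, an epithelial adhesion protein, was at 11.7 against 336 to 604. Its 9 lymphoid markers summed to 5704.5 FPKM against 4.3 to 672, with Cd79a, a B cell receptor chain, at 723, and its 5 germinal centre B cell markers to 179.8 against 23.8 to 32.7. NSG mice are known to lack mature B and T cells. Each comparison was therefore fitted with all 11 libraries and without vehicle replicate 2, which leaves 1 vehicle tumour whose spread is taken from the other groups.

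The 32 genes were lowest in mean in the palbociclib tumours, and the means of the other 3 groups lay close together. The mean log2(FPKM + 1) over the 32 genes was 4.26 ± 0.34 (SD, n = 3) with palbociclib, 4.83 ± 0.27 (n = 3) with both drugs, 4.86 ± 0.14 (n = 3) with OPG-Fc and 4.70 ± 0.17 (n = 2) with vehicle. Palbociclib replicates 1 and 2 carried the low values: they were the 2 lowest of the 11 tumours for 25 of the 32 genes, a pattern seen in 2.75% of all 13074 genes tested and picked out after its values were seen. Palbociclib replicate 3, with a mean of 4.65, was the highest of its group for 32 of 32 genes (32.5% of all genes) and lay above vehicle replicate 1 for 20 of 32 (50.5%). In a bulk tumour, fewer dividing cells and less mitotic RNA per cell cannot be told apart.

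**Figure D1:**
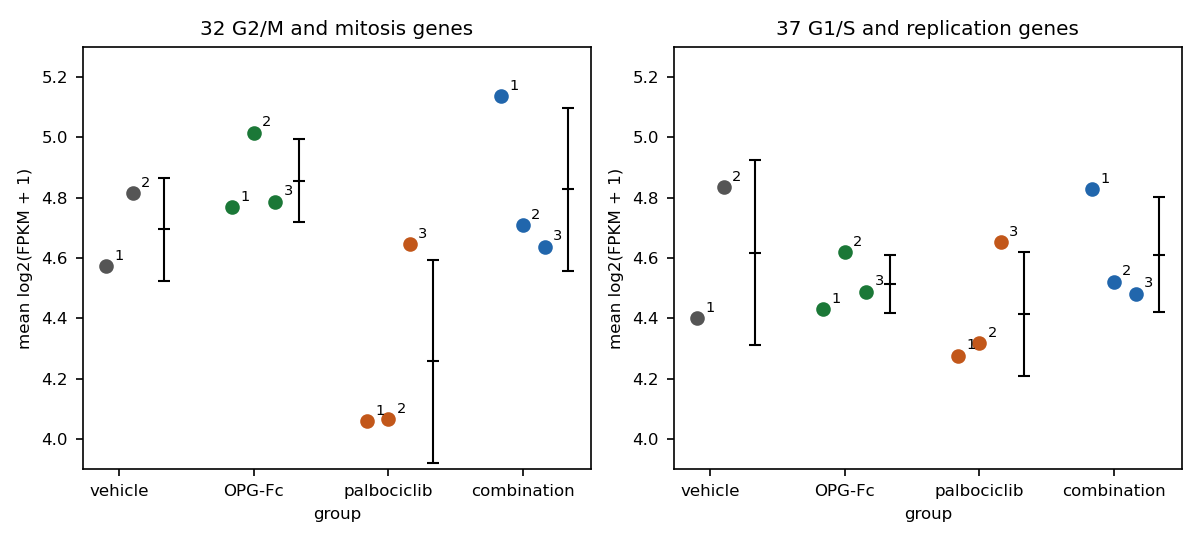
Mean log2(FPKM + 1) in each tumour (numbered points) over the 32 G2/M and mitosis genes (left) and 37 G1/S and replication genes (right), by group; horizontal marks and bars are the group mean and 1 SD, and the vertical axis does not start at 0. Palbociclib replicates 1 and 2 lie lowest on the left at 4.06 and 4.07, and combination replicate 1 lies highest at 5.14.

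The 37 genes of the G1/S transition and DNA replication, listed for comparison, had group means of 4.42 ± 0.21 (SD, n = 3) with palbociclib, 4.61 ± 0.19 with both drugs, 4.51 ± 0.10 with OPG-Fc and 4.62 ± 0.31 (n = 2) with vehicle. Their group means lay closer together than those of the mitotic genes. The difference between the 2 lists was not tested.

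**Figure D2:**
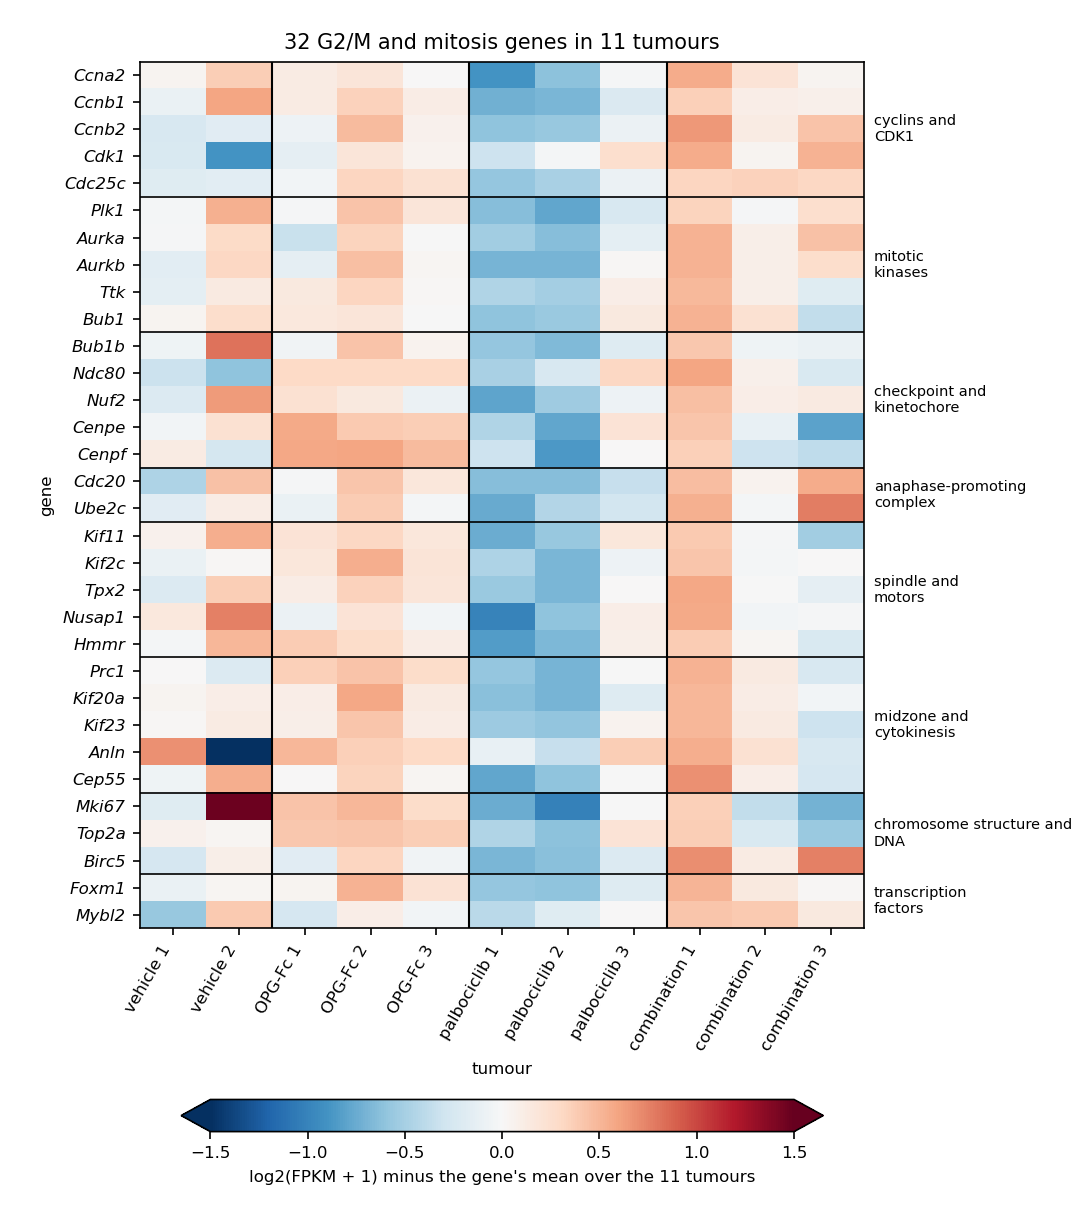
log2(FPKM + 1) of each of the 32 genes (rows, grouped by role) in each of the 11 tumours (columns), less the mean of that gene over the 11 tumours; the colour scale is held at 1.5 on both sides. Palbociclib replicates 1 and 2 are blue in nearly every row, and vehicle replicate 2 departs from vehicle replicate 1 at Anln, Mki67 and Cdk1.

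Among the cyclins and regulators of CDK1, values are listed here and below in order of replicate number. Ccnb1, cyclin B1, was at 25.5 and 41.5 with vehicle, 29.9, 35.1 and 29.6 with OPG-Fc, 16.2, 16.6 and 23.3 with palbociclib, and 35.3, 29.4 and 28.9 with both drugs FPKM. The 3 palbociclib tumours lay below the other 8, with no overlap. Cdc25c, a phosphatase that activates CDK1, was at 9.24 and 9.46 with vehicle, 10.3, 13.6 and 12.7 with OPG-Fc, 6.76, 7.34 and 9.97 with palbociclib, and 13.5, 13.8 and 13.4 with both drugs FPKM. The combination tumours were nearly level with each other, above both vehicle tumours and all 3 palbociclib tumours. Between the combination and palbociclib, Cdc25c differed by 0.71 ± 0.16 (log2 fold change ± SE), Ccnb1 by 0.72 ± 0.21, Ccnb2, cyclin B2, by 0.82 ± 0.21 and Ccna2, cyclin A2, by 0.77 ± 0.23.

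Cdk1, the mitotic kinase itself, had another order. It was at 31.6 and 19.6 with vehicle, 33.9, 42.6 and 38.9 with OPG-Fc, 29.9, 36.5 and 44.8 with palbociclib, and 55.3, 38.5 and 54.2 with both drugs FPKM. Vehicle replicate 2 was the lowest of all 11 tumours, and the palbociclib tumours spanned vehicle replicate 1. The log2 fold change between palbociclib and vehicle was 0.54 ± 0.25 with all libraries and 0.21 ± 0.26 without vehicle replicate 2 (limma adjusted p = 0.19 and 0.803). The combination tumours were all above both vehicle tumours.

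Of the mitotic kinases, Plk1, which drives centrosome maturation and mitotic entry, was at 27.0 and 40.3 with vehicle, 27.0, 37.2 and 31.3 with OPG-Fc, 17.3, 15.6 and 23.2 with palbociclib, and 34.9, 27.2 and 32.9 with both drugs FPKM. No palbociclib tumour reached the lowest value of any other group. Aurka, the spindle pole kinase Aurora A, was at 24.4 and 30.3 with vehicle, 19.3, 31.4 and 24.7 with OPG-Fc, 16.9, 15.5 and 22.3 with palbociclib, and 36.0, 26.3 and 33.9 with both drugs FPKM. Its palbociclib and combination tumours did not overlap, while OPG-Fc replicate 1 lay inside the palbociclib range. The 5 kinases differed between combination and palbociclib by 0.41 (Ttk, the checkpoint kinase MPS1) to 0.79 (Aurka), with Bub1, a kinetochore kinase, at 0.46 ± 0.26, Plk1 at 0.74 ± 0.21 and Aurkb, the kinase of the chromosomal passenger complex, at 0.74 ± 0.25.

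Checkpoint and kinetochore genes were less uniform. Bub1b, which encodes the checkpoint protein BUBR1, was at 17.4 and 32.7 with vehicle, 17.6, 24.8 and 19.0 with OPG-Fc, 11.9, 11.1 and 15.8 with palbociclib, and 24.4, 17.4 and 16.9 with both drugs FPKM, with all palbociclib tumours below all others. Ndc80, a subunit of the complex that holds microtubules at the kinetochore, was at 12.9 and 10.5 with vehicle, 20.5, 20.6 and 20.6 with OPG-Fc, 11.5, 13.8 and 20.7 with palbociclib, and 25.4, 17.4 and 13.9 with both drugs FPKM. Palbociclib replicate 3 was level with the OPG-Fc tumours there, and the vehicle tumours were among the lowest. Cenpf, a kinetochore and nuclear matrix protein, was at 8.03 and 5.91 with vehicle, 11.4, 11.5 and 10.5 with OPG-Fc, 5.67, 3.55 and 7.34 with palbociclib, and 9.63, 5.69 and 5.37 with both drugs FPKM, and its 3 OPG-Fc tumours were above the other 8. Nuf2, the partner of Ndc80, differed between combination and palbociclib by 0.70 ± 0.25, whereas Ndc80 differed by 0.29 ± 0.25, Cenpf by 0.28 ± 0.26 and the kinetochore motor Cenpe by 0.17 ± 0.32.

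The activator of the anaphase-promoting complex, Cdc20, was at 34.0 and 64.4 with vehicle, 46.6, 62.9 and 53.0 with OPG-Fc, 29.9, 30.0 and 36.9 with palbociclib, and 65.3, 48.9 and 69.9 with both drugs FPKM. Vehicle replicate 1 fell inside the palbociclib range and vehicle replicate 2 did not, so the vehicle level depends on which library is read. All combination tumours were above all palbociclib tumours, by 0.90 ± 0.24. Ube2c, the ubiquitin-conjugating enzyme of the complex, had the highest median FPKM of the 32 genes at 117 and differed by 0.91 ± 0.23.

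**Figure D3:**
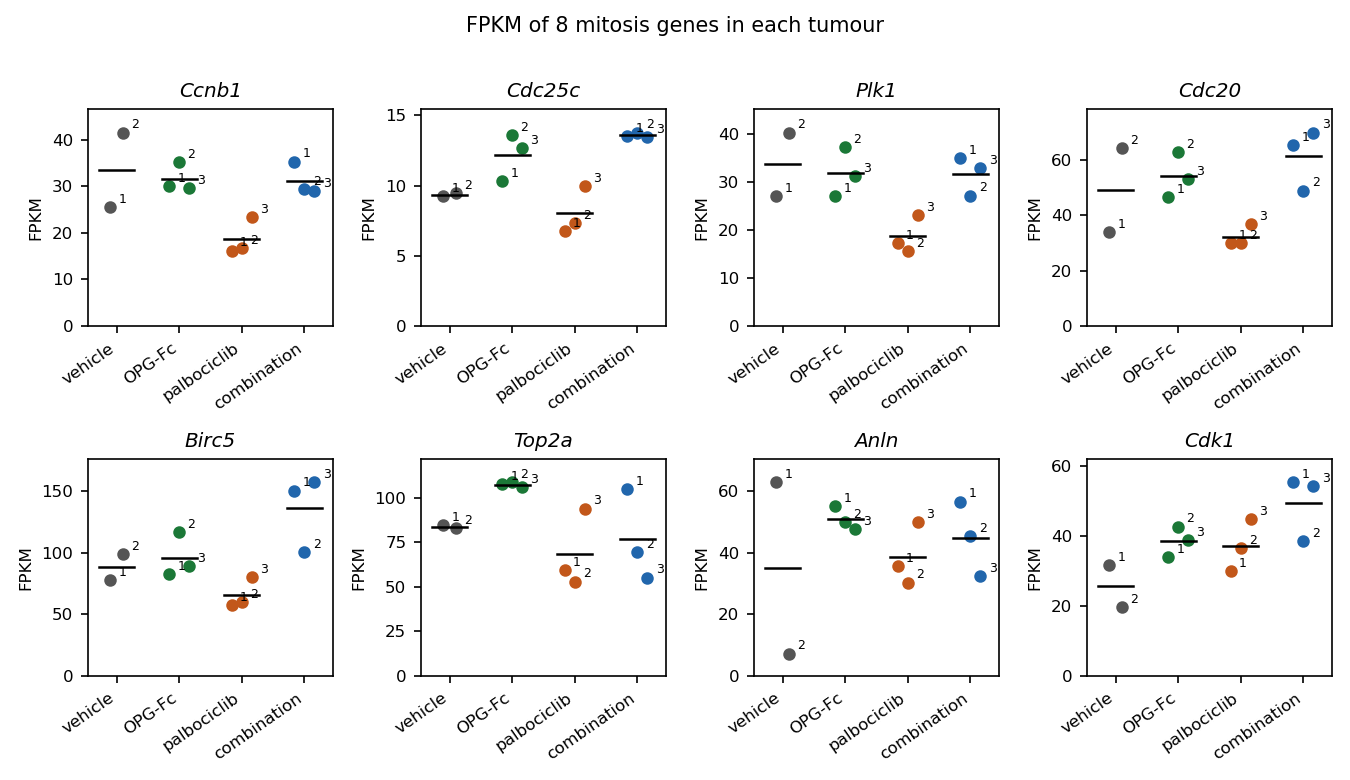
FPKM of 8 of the genes in each tumour (numbered points) by group; horizontal lines are group means and each vertical axis starts at 0. For Ccnb1, Cdc25c, Plk1, Cdc20 and Birc5 every combination tumour lies above every palbociclib tumour, for Top2a and Anln the groups overlap, and Anln is at 7.18 in vehicle replicate 2.

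Among spindle proteins and motors, Kif11, the motor that pushes spindle poles apart, was at 19.0 and 27.0 with vehicle, 21.2, 22.9 and 20.5 with OPG-Fc, 10.5, 11.9 and 20.5 with palbociclib, and 24.2, 18.02 and 12.4 with both drugs FPKM. Palbociclib replicates 1 and 2 and combination replicate 3 were low together, and palbociclib replicate 3 was level with OPG-Fc. Tpx2, which activates Aurora A on the spindle, was at 23.2 and 34.8 with vehicle, 29.1, 34.1 and 30.5 with OPG-Fc, 17.8, 16.3 and 26.9 with palbociclib, and 40.5, 26.5 and 24.2 with both drugs FPKM. Palbociclib replicates 1 and 2 lay below all 9 other tumours, and replicate 3 lay inside the range of the combination. The differences between combination and palbociclib ran from 0.34 ± 0.28 (Kif11) to 0.67 ± 0.29 (Nusap1, a microtubule bundling protein), with Tpx2 at 0.56 ± 0.25, the depolymerising kinesin Kif2c at 0.54 ± 0.20 and the spindle protein Hmmr at 0.54 ± 0.27.

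Of the genes of the midzone and cytokinesis, Anln, the scaffold anillin of the contractile ring, was at 62.8 and 7.18 with vehicle, 55.1, 49.8 and 47.7 with OPG-Fc, 35.6, 30.3 and 50.0 with palbociclib, and 56.6, 45.4 and 32.5 with both drugs FPKM. Vehicle replicate 1 was the highest of the 11 tumours and vehicle replicate 2 the lowest, a ratio of 8.75. With all libraries palbociclib was above vehicle by 0.76 ± 0.67, and without vehicle replicate 2 it was below by -0.72 ± 0.31. The other 4 genes differed between combination and palbociclib by 0.47 ± 0.24 (Kif23, the central spindle kinesin MKLP1), 0.57 ± 0.23 (the microtubule crosslinker Prc1), 0.64 ± 0.29 (the abscission protein Cep55) and 0.70 ± 0.20 (the midzone kinesin Kif20a). Anln itself differed by 0.21 ± 0.60 with all libraries.

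Genes of chromosome structure gave both the widest and the narrowest difference between combination and palbociclib among the 32 genes. Mki67, which encodes the proliferation marker Ki-67, was at 24.6 and 79.7 with vehicle, 38.0, 40.2 and 34.2 with OPG-Fc, 16.4, 13.4 and 27.96 with palbociclib, and 36.1, 21.5 and 16.9 with both drugs FPKM. Vehicle replicate 2 was the highest tumour by a wide margin, and combination replicates 2 and 3 overlapped with palbociclib. Top2a, the topoisomerase that untangles sister chromatids, was at 84.8 and 82.8 with vehicle, 108, 109 and 106 with OPG-Fc, 59.2, 52.9 and 93.9 with palbociclib, and 105, 69.5 and 55.2 with both drugs FPKM, with combination replicate 3 close to the lowest palbociclib tumour. Birc5, the passenger complex subunit survivin, was at 78.0 and 98.9 with vehicle, 82.5, 117 and 89.1 with OPG-Fc, 57.4, 59.8 and 80.3 with palbociclib, and 151, 100.8 and 157 with both drugs FPKM. All 3 combination tumours exceeded all 3 palbociclib tumours for Birc5, by 1.03 ± 0.22, while Mki67 differed by 0.35 ± 0.43 and Top2a by 0.15 ± 0.26.

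Both transcription factors of the program were measured. Foxm1 was at 18.1 and 19.9 with vehicle, 20.04, 28.4 and 22.7 with OPG-Fc, 12.7, 12.4 and 16.9 with palbociclib, and 28.01, 21.6 and 19.6 with both drugs FPKM, and the 3 palbociclib tumours were below the other 8. Mybl2, the MuvB partner that acts before FOXM1, was at 7.58 and 15.7 with vehicle, 9.68, 12.7 and 11.3 with OPG-Fc, 8.60, 10.2 and 11.8 with palbociclib, and 15.96, 15.6 and 13.1 with both drugs FPKM. Vehicle replicate 1 was the lowest tumour for Mybl2, and the combination tumours were above all OPG-Fc and all palbociclib tumours. Foxm1 and Mybl2 differed between combination and palbociclib by 0.68 ± 0.19 and 0.51 ± 0.24.

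Between palbociclib alone and palbociclib with OPG-Fc all 32 genes had one direction, though none passed the test. The genes are not independent replicates. Palbociclib replicate 3 was the highest of its group for 32 of 32 (32.5% of all genes), and combination replicate 1 for 28 of 32 (38.6%). All 32 genes had a higher mean in the combination (52.7% of all genes tested), with a median log2 fold change of 0.56 against 0.02 over all genes. None of the 32 had an adjusted p under 0.05, as none of the 13074 genes did (0.0%). At an unadjusted p under 0.05, 16 of the 32 were higher (4.22% of all genes) and 0 lower (2.53%). For 16 of 32 all combination tumours were above all palbociclib tumours (13.7% of all genes): Aurka, Aurkb, Birc5, Bub1b, Ccna2, Ccnb1, Ccnb2, Cdc20, Cdc25c, Foxm1, Kif20a, Kif2c, Mybl2, Nuf2, Plk1 and Ube2c. The smallest limma p-values were those of Birc5 and Cdc25c (adjusted p = 0.637 for each).

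Without vehicle replicate 2 the fold changes are the same and the pooled spread is smaller. The count at an unadjusted p under 0.05 was then 20 of 32, all higher (10.5% of all genes were higher and 7.22% lower), and the smallest adjusted p-values were 0.0682 for Cdc20 and 0.0833 for Birc5. With libraries weighted by their spread, 10 of the 32 genes passed, among 671 of all genes, but the estimate of the weights did not converge, and another estimate gave 5 of 32, among 427. With a correction for length and GC content and without vehicle replicate 2, Cdc20 alone passed at 0.73, among 65. Top2a lost its direction without palbociclib replicate 2 (-0.01) or combination replicate 1 (-0.10), and the median over the 32 genes ranged from 0.39 to 0.80 when each library was left out in turn.

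Markers of other cells also differed in this comparison, and their part in it was not tested. All 8 macrophage markers had a higher mean in the combination, 6 of them without overlap, and summed to 655 to 858 FPKM with palbociclib and 957 to 2079.5 with both drugs. Means were also higher for 8 of 8 adipocyte markers (64.2 to 105 against 104 to 677 FPKM summed), 7 of 8 fibroblast markers (586 to 760.5 against 779 to 1023) and 9 of 9 lymphoid markers (4.3 to 9.2 against 6.1 to 26.8), and for 2 of 5 germinal centre markers (23.8 to 27.3 against 24.3 to 26.5). Of 10 epithelial markers 3 were higher and 7 lower (3522.5 to 4113 FPKM summed against 3359.8 to 4065.5). The 9 skin and hair follicle markers were all lower in mean, and summed to 3.4 to 409 FPKM with palbociclib and 2.0 to 28.5 with both drugs. Palbociclib replicates 1, 2 and 3 had skin sums of 409, 3.4 and 290 FPKM, and their means over the 32 genes were 4.06, 4.07 and 4.65. Among the markers listed at 0 in 1 or more of these 6 tumours were Rgs13, Ms4a1 and Mef2b, and Krt1, Krt77, Flg, Krt71, Krt25 and Krt27 of the skin list.

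**Figure D4:**
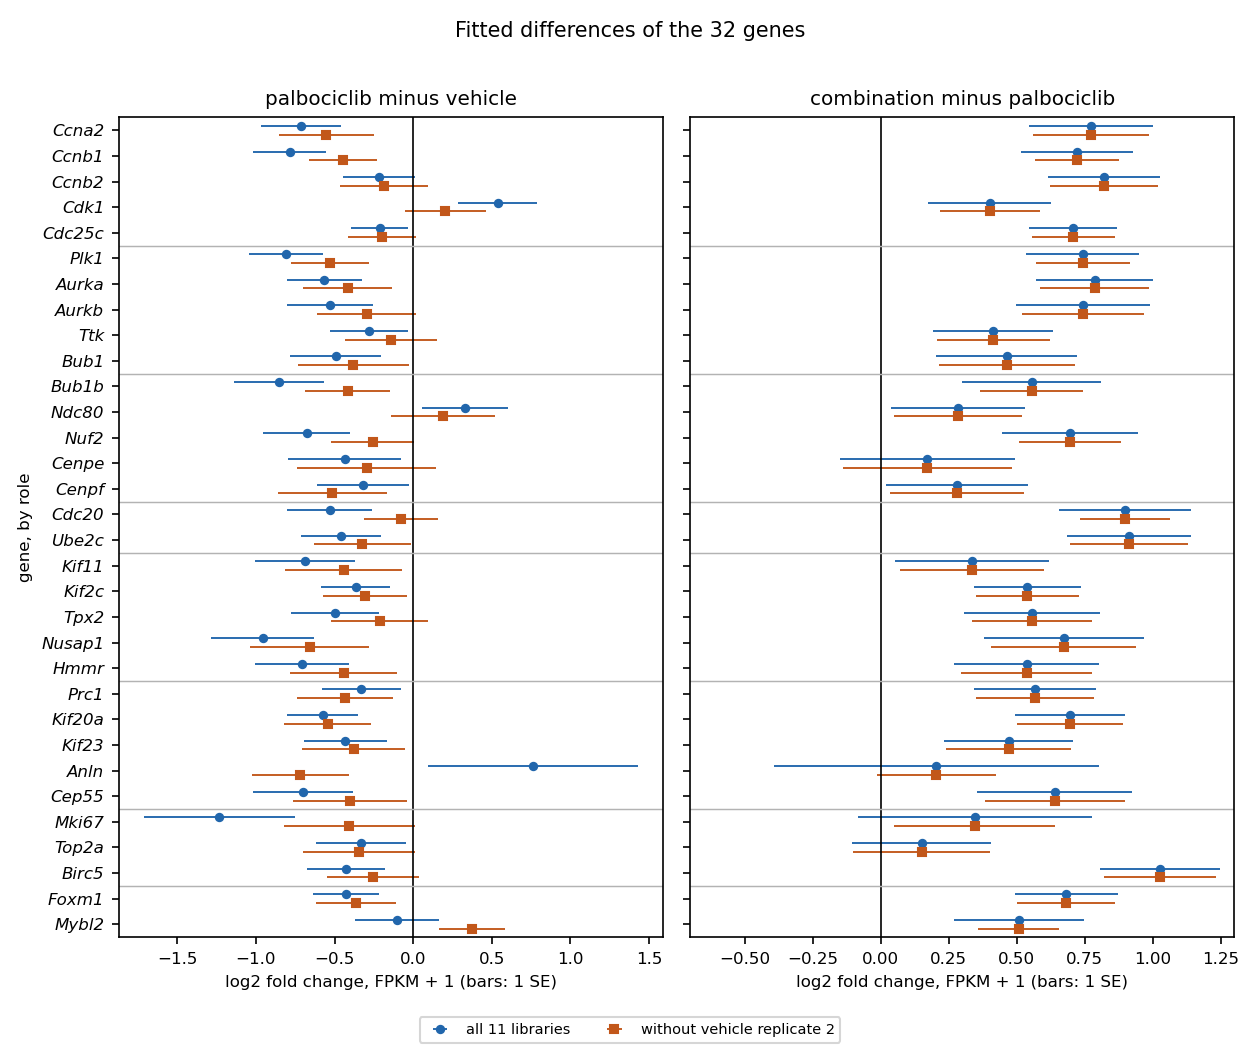
Fitted log2 fold change of each of the 32 genes with 1 SE for palbociclib minus vehicle (left) and combination minus palbociclib (right), with all 11 libraries (circles) and without vehicle replicate 2 (squares). All points on the right lie above 0, from 0.15 to 1.03, and Anln changes side on the left from 0.76 to -0.72.

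Palbociclib alone against vehicle ran the other way for most of the genes, with the palbociclib libraries shared between the 2 comparisons. Of the 32 genes 29 had a lower mean with palbociclib (52.7% of all genes) in the fit of all libraries, and 29 without vehicle replicate 2 (53.6%). None passed in either fit (0.0% of all genes). At an unadjusted p under 0.05, 10 were lower and 0 higher with all libraries (14.5% of all genes were lower), and 1, Anln, was lower without vehicle replicate 2 (3.62%). The smallest limma p-values with all libraries were those of Plk1 (-0.81 ± 0.23) and Ccnb1 (-0.79 ± 0.23), with adjusted p = 0.158 for each, and without vehicle replicate 2 these were -0.53 ± 0.25 and -0.45 ± 0.22.

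In the fit of all libraries every role had a median below 0 in this comparison. The median was -0.69 for the 5 spindle genes, -0.53 for the 5 kinases, -0.50 for the 2 genes of the anaphase-promoting complex, -0.44 for the 5 checkpoint genes, -0.43 for the 5 midzone genes and the 3 chromosome genes, -0.27 for the 2 transcription factors and -0.22 for the 5 cyclin and CDK1 genes. With vehicle replicate 2 left out the medians were -0.44 for spindle, -0.38 for kinases, -0.20 for the anaphase-promoting complex, -0.30 for checkpoint, -0.43 for midzone, -0.35 for chromosome and -0.20 for cyclin and CDK1 genes. The transcription factors were then at 0.01, with Mybl2 higher and Foxm1 lower. All 3 palbociclib tumours were below both vehicle tumours for 9 of 32 genes (20.2% of all genes): Aurka, Bub1b, Ccna2, Ccnb1, Foxm1, Kif20a, Nusap1, Plk1 and Ube2c. Against vehicle replicate 1 alone it was 12 of 32 (33.0%), with Anln, Cenpf and Prc1 added. Which vehicle tumour served as the control decided the calls, among all genes as among these 32. The median over the 32 genes was -0.60 without vehicle replicate 1 and -0.37 without vehicle replicate 2.

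Cell type markers differed here too. All 8 macrophage, 8 fibroblast, 8 adipocyte, 9 lymphoid and 5 germinal centre markers had lower means with palbociclib than with vehicle, and all 10 epithelial and 9 skin markers had higher ones. Against vehicle replicate 1 alone, means were lower for 7 of 8 macrophage, 8 of 8 fibroblast, 4 of 8 adipocyte, 7 of 9 lymphoid and 2 of 5 germinal centre markers, and higher for 8 of 10 epithelial and 9 of 9 skin markers. The vehicle sums ran from 999.5 to 1838 FPKM for macrophage, 817 to 1380 for fibroblast, 88.3 to 1222 for adipocyte, 20.1 to 5704.5 for lymphoid and 0.8 to 1.1 for skin markers, of which 6 of 9 were at 0 in each vehicle tumour. The part of these cells in the difference was not tested.

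OPG-Fc alone differed from vehicle by a small median over the 32 genes. With all libraries 21 of 32 genes had a higher mean with OPG-Fc (54.2% of all genes), with a median of 0.12, and without vehicle replicate 2 it was 30 of 32 (57.6%), with a median of 0.29. None passed in either fit (0.0% and 0.00765% of all genes), and at an unadjusted p under 0.05 there were 2 higher in each (7.6% and 10.4%). Those were Ndc80 at 0.77 ± 0.28 and Cdk1 at 0.60 ± 0.25 with all libraries (adjusted p = 0.471 for each), and Cdc20 at 0.65 ± 0.23 and Mybl2 at 0.50 ± 0.21 without vehicle replicate 2. All OPG-Fc tumours were above both vehicle tumours for 10 genes (12.7% of all genes): Ccnb2, Cdc25c, Cdk1, Cenpe, Cenpf, Foxm1, Kif2c, Ndc80, Prc1 and Top2a. Above vehicle replicate 1 alone it was 27 genes (39.0%). Fibroblast markers had a higher mean with OPG-Fc for 8 of 8, 5 of them without overlap (1881 to 2718 FPKM summed, against 817 to 1380 with vehicle), as did 8 of 8 adipocyte markers (799 to 2512 against 88.3 to 1222), 7 of 8 macrophage, 10 of 10 epithelial and 6 of 9 skin markers, and 0 of 9 lymphoid and 0 of 5 germinal centre markers. Against vehicle replicate 1 alone all 8 macrophage, 9 lymphoid and 5 germinal centre markers were higher in mean and 8 of 10 epithelial markers lower. The part of these cells in the difference was not tested. Within the group OPG-Fc replicate 2 was the highest for 27 of 32 genes (42.2% of all genes), and its lymphoid markers summed to 672 FPKM against 18.8 and 27.4 in replicates 1 and 3. Leaving out vehicle replicate 1 instead gave a median of -0.11 over the 32 genes.

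The median difference between combination and vehicle was small as well. Of the 32 genes 20 had a higher mean in the combination with all libraries (49.3% of all genes; median 0.09) and 26 without vehicle replicate 2 (51.5%; median 0.24). None passed in either fit (0.0% and 0.0612% of all genes), and at an unadjusted p under 0.05, 4 and 6 were higher (15.3% and 13.6%) and 0 lower (14.3% and 9.51%). Cdk1 at 0.94 ± 0.25 had the smallest adjusted p with all libraries, 0.0752, followed by Cdc25c at 0.49 ± 0.18 (0.123). Without vehicle replicate 2 it was Mybl2 at 0.88 ± 0.21 (0.0857), then Cdc20 at 0.82 ± 0.23 (0.11). The groups did not overlap, with the combination higher, for 5 genes (18.0% of all genes): Birc5, Ccnb2, Cdc25c, Cdk1 and Ndc80. Against vehicle replicate 1 alone it was 17 genes (34.7%). Means were lower in the combination for all 8 adipocyte, all 9 lymphoid and all 5 germinal centre markers. They were also lower for 5 of 8 macrophage and 7 of 8 fibroblast markers and higher for all 10 epithelial and 9 skin markers. Against vehicle replicate 1 alone, 8 of 8 adipocyte, 7 of 8 macrophage, 3 of 8 fibroblast and 4 of 9 lymphoid markers were higher. So were 2 of 5 germinal centre, 6 of 10 epithelial and 9 of 9 skin markers. The part of these cells in the difference was not tested. Leaving out vehicle replicate 1 instead gave a median of -0.05 over the 32 genes.

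Against OPG-Fc alone the combination showed no common direction, with 14 of 32 genes higher (42.5% of all genes) and 18 lower (57.5%), and a median of -0.03. None passed in either fit (0.0994% and 4.7% of all genes). At an unadjusted p under 0.05 only Cenpf was lower with all libraries, at -0.66 ± 0.26 (adjusted p = 0.295; 8.77% of all genes were lower), and 0 were higher (6.68%). Birc5 came next at 0.49 ± 0.22 (adjusted p = 0.327). Without vehicle replicate 2 there were 1 lower and 2 higher (19.1% and 12.2%). All 8 fibroblast and 8 adipocyte markers had a lower mean in the combination, 8 and 6 of them without overlap. Means were also lower for 7 of 8 macrophage, 9 of 9 lymphoid and 5 of 5 germinal centre markers. They were higher for 8 of 10 epithelial and 8 of 9 skin markers, and the part of these cells was not tested. The long genes Cenpf and Top2a were below all OPG-Fc tumours in every combination tumour (23.5% of all genes were), and Mybl2 was above (15.3%). With weighted libraries 2 of the 32 genes passed, among 3490 of all genes, or 1 among 2583 with the other estimate of the weights.

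Averaged over both backgrounds, vehicle and OPG-Fc, palbociclib went with a median of -0.27 over the 32 genes, and 26 of 32 were lower (53.8% of all genes). None of them passed while 370 of all genes did (2.83%), and 511 did without vehicle replicate 2 (3.91%), where the median was -0.20. With all libraries 8 were lower and 1 higher at an unadjusted p under 0.05 (19.6% and 14.2% of all genes), and without vehicle replicate 2 it was 2 and 1 (15.3% and 13.1%). Mki67 was at -0.94 ± 0.32 (adjusted p = 0.0947) and Plk1 at -0.41 ± 0.16, and without vehicle replicate 2 they were at -0.52 ± 0.26 and -0.27 ± 0.15. The median over the 32 genes was -0.32 without vehicle replicate 1.

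The interaction asks whether palbociclib acted differently with OPG-Fc than without it. The median over the 32 genes was 0.49 with all libraries, with 26 of 32 above 0 (48.5% of all genes), and 0.34 without vehicle replicate 2, with 27 above 0 (40.0%). None passed in either fit (0.0%). At an unadjusted p under 0.05 there were 7 above 0 with all libraries (2.3% of all genes) and 0 without vehicle replicate 2 (1.62%). Aurka at 0.92 ± 0.32 and Birc5 at 0.91 ± 0.33 had the smallest p-values (limma adjusted p = 0.647 for each), and were at 0.77 ± 0.35 and 0.75 ± 0.36 without vehicle replicate 2. The median over the 32 genes was 0.68 without vehicle replicate 1.

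Tumours of 1 group were spread more widely for these genes, in median, than for all genes tested. The genes compared were not matched for expression level, and log2(FPKM + 1) understates the spread of low genes. The residual SD of log2(FPKM + 1) had a median of 0.31 over the 32 genes and 0.28 over all genes with all libraries, and of 0.31 against 0.20 without vehicle replicate 2, when 29 of 32 were above the median of all genes. It was lowest for Cdc25c (0.18) and highest for Anln (0.84) with all libraries, and ran from 0.18 for Mybl2 to 0.46 for Cenpe without vehicle replicate 2. Combination replicate 1 was the highest of its group for 28 of 32 genes (38.6% of all genes).

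Differences between tumours of 1 group varied with transcript length. Combination replicate 3 was level with its group for the 10 members with a longest coding transcript under 2500 bases, with a median difference of 0.01 from the mean of the other 2 tumours, and lower for the 9 of 4000 bases or more, at -0.62. Cenpe (7910 bases) was at -0.95 and Mki67 (10061 bases) at -0.69, whereas Ube2c (2191 bases) was at 0.52 and Cdc20 (1793 bases) at 0.30. Length did not order every member: Cenpf, the longest at 11130 bases, was at -0.405, Cdk1 (4375 bases) at 0.23 and Ndc80 (2201 bases) at -0.57. Across the 32 members Spearman's rho between length and this difference was -0.61, and across 12747 genes of known length it was -0.52. In combination replicate 1 the 2 values were 0.62 and 0.46. Genes are not independent replicates, and all points of a library share its RNA and its depth.

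Palbociclib replicate 3 differed from its group at all lengths. The median difference from the mean of the other 2 tumours was 0.48 for the 10 short members and 0.63 for the 9 long ones, above 0 for 10 of 10 and 9 of 9. The rho with length was 0.37 across members and 0.29 across all genes. The part of transcript length in the comparisons between groups was measured as one of the alternatives, which correct each library for length and GC content.

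**Figure D5:**
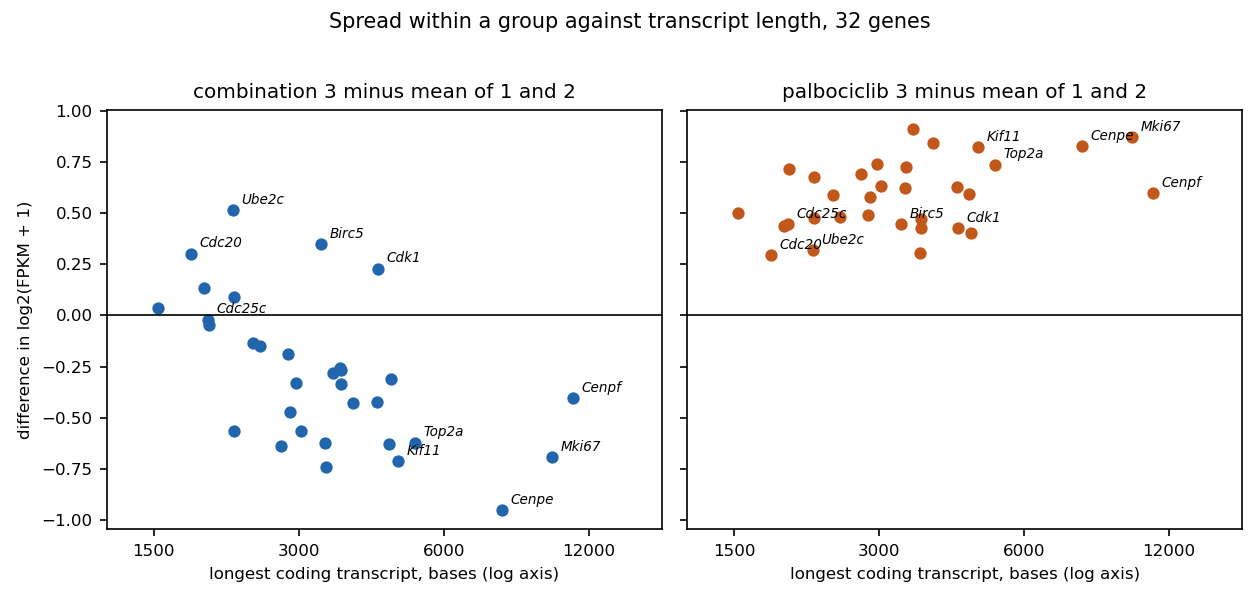
Difference in log2(FPKM + 1) between 1 tumour and the mean of the other 2 of its group against the length of the longest coding transcript (log axis), for the 32 genes; left, combination replicate 3, right, palbociclib replicate 3. On the left most of the shortest genes lie near or above 0, with Ndc80 at -0.57, and long genes lie as low as -0.95. On the right all 32 lie above 0.

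A wider list of 84 mitotic genes, none of them a member, gave smaller differences in the same directions. Between combination and palbociclib 69 of 84 were higher (52.7% of all genes) with a median of 0.32, 23 of them at an unadjusted p under 0.05 (4.22% of all genes). Between palbociclib and vehicle 66 of 84 were lower (52.7%) with a median of -0.33. There were 14 lower (14.5% of all genes) and 3 higher (13.6%) at an unadjusted p under 0.05. Without vehicle replicate 2, 64 of 84 were lower (53.6%), with a median of -0.22. None of the 84 passed in any of the 7 comparisons in either fit. Pttg1, the separase inhibitor securin, was at 61.8 and 65.0 with vehicle, 67.8, 79.6 and 77.8 with OPG-Fc, 42.2, 44.9 and 61.3 with palbociclib, and 102, 80.1 and 119 with both drugs FPKM. Its combination tumours were above all palbociclib tumours, by 1.01 ± 0.18 (adjusted p = 0.637, and 0.0609 without vehicle replicate 2). Kifc1, a minus-end kinesin, differed by 0.60 ± 0.13 (0.637 and 0.0839).

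The lists within the 84 genes did not all have the pattern. A list of 9 regulators of CDK1 and further mitotic kinases, Nek2 and Haspin among them, had a median of 0.52 between combination and palbociclib. The median was 0.46 for the 15 motor and spindle genes and 0.43 for the 19 checkpoint, kinetochore and centromere genes. It was 0.34 for the 6 cytokinesis genes and 0.30 for the 10 genes of the passenger complex and cohesion. The 8 condensin genes were at 0.18 and the 4 genes of MuvB and its regulators at 0.09. The 13 subunits and partners of the anaphase-promoting complex, whose core subunits are made throughout the cell cycle, were at 0.02 there and at 0.08 between palbociclib and vehicle (-0.02 without vehicle replicate 2). Nek2, a centrosome kinase, had the smallest p of the 84 between palbociclib and vehicle at -1.04 ± 0.28, then the kinesin Kif18b at -0.86 ± 0.23 (adjusted p = 0.158 for each). Without vehicle replicate 2 they were at -0.65 ± 0.27 and -0.60 ± 0.24.

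In the other comparisons the genes of the wider list with the smallest p-values were as follows. Mad1l1, a spindle checkpoint protein, was at 0.47 ± 0.13 between OPG-Fc and vehicle, with the spindle protein Ckap2 at 0.78 ± 0.33 (adjusted p = 0.471 for each). They were at 0.49 ± 0.15 and 0.27 ± 0.31 without vehicle replicate 2. Between combination and vehicle Mad1l1 was at 0.56 ± 0.13 and Cks1b, a small CDK-binding subunit, at 0.97 ± 0.23 (adjusted p = 0.0653 for each), and without vehicle replicate 2 at 0.58 ± 0.15 and 0.68 ± 0.24. Cks1b had the smallest p between combination and OPG-Fc as well, at 0.66 ± 0.21, beside Ube2s, which extends ubiquitin chains for the anaphase-promoting complex, at 0.62 ± 0.20 (adjusted p = 0.25 for each). For palbociclib averaged over both backgrounds it was Nek2 at -0.68 ± 0.18 and the cytokinesis kinase Cit at -0.45 ± 0.14 (0.0655 and 0.0774), and for the interaction the cohesion factor Cdca5 at 0.94 ± 0.34 and Pttg1 at 0.77 ± 0.28 (0.647 for each). In the fit without vehicle replicate 2, Nek2 was at -0.48, Cit at -0.40, Cdca5 at 0.58 and Pttg1 at 0.73.

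Between combination and palbociclib 33 of the 37 genes of the G1/S list were higher (52.7% of all genes), with a median of 0.20. Between palbociclib and vehicle 25 of the 37 were lower with all libraries (52.7% of all genes), at a median of -0.24. Without vehicle replicate 2 it was 19 of the 37 (53.6% of all genes), at a median of -0.002.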

How the data were processed

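The authors deposited 1 table of FPKM for 17181 gene symbols and 11 libraries. HISAT, Bowtie2 and RSEM are named in the submitters' processing notes, without roles, with the builds GRCm39 and mm39. No counts were used, so depth and its counting error are unknown. Groups follow the treatment label. Values were taken as log2(FPKM + 1), which understates changes of low genes, and the 13074 genes reaching FPKM 1 in 2 or more libraries entered limma 3.58.1 (R 4.3.3) with trend, in 1 fit over the 4 groups, with Benjamini-Hochberg adjustment over all genes at 0.05. The procedure was first tested on simulated data. Lengths and GC content came from GENCODE M21 by symbol (97.5% of tested genes), and promoters from RefSeq. Values in every tumour are given for 12 genes chosen by role and, in each comparison, for members that passed or else the 2 with the smallest p; a few others named for not overlapping were chosen after their values were seen. The members and lists were chosen with earlier results of these data known. Alternatives changed the pseudocount, filter, scaling, library weights, groups fitted, replicate block, length and GC correction, and libraries.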

Additional observations from a re-analysis of the deposited data

How the results depend on the processing

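The median over the 32 genes stayed within 1 SD of the spread between tumours under every alternative run in 6 of the 7 comparisons. The exception was OPG-Fc against vehicle, which moved from 0.12 to -0.11 without vehicle replicate 1 and to 0.29 without vehicle replicate 2, against an SD of 0.15. With each library left out in turn it ranged from -0.67 to -0.37 for palbociclib against vehicle, from 0.39 to 0.80 for combination against palbociclib, from -0.37 to -0.20 for palbociclib averaged over both backgrounds and from 0.34 to 0.68 for the interaction, and it crossed 0 for OPG-Fc against vehicle (-0.11 to 0.29), combination against vehicle (-0.07 to 0.24) and combination against OPG-Fc (-0.19 to 0.07).

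Leaving out each library in turn gave 0 to 13 passing members for palbociclib against vehicle, 0 to 2 for OPG-Fc against vehicle, 0 to 4 for combination against vehicle, and 0 to 10 each for the averaged effect and the interaction, with the highest count each time without vehicle replicate 1. It gave 0 in both other comparisons. Counts are out of 32 members, 84 genes of the wider list and 13074 genes tested. The wider mitotic list ranged from 0 to 30, 0 to 12, 0 to 18, 0 to 33 and 0 to 21 in those 5 comparisons. All genes ranged from 0 to 6802 (palbociclib against vehicle), 0 to 5272 (OPG-Fc against vehicle), 0 to 6640 (combination against vehicle), 0 to 143 (combination against palbociclib), 0 to 623 (combination against OPG-Fc), 2 to 6927 (averaged) and 0 to 4800 (interaction).

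With array weights 10 members, 8 genes of the wider list and 671 of all genes passed between combination and palbociclib, 2, 9 and 3490 between combination and OPG-Fc, and 0 of all genes for the averaged effect. The default estimate of these weights stopped before it converged, with weights from 0.103 (both vehicle libraries) to 12.57 (OPG-Fc replicate 3). The gene-by-gene estimate, added after seeing the data, gave 5, 6 and 427, then 1, 4 and 2583, and again 0, with a highest weight of 6.26. With the length and GC correction and vehicle replicate 2 left out, 1 member and 65 genes passed between combination and palbociclib, 1 of the wider list and 534 genes between combination and OPG-Fc, 1 of the wider list for the averaged effect, 3 genes for palbociclib against vehicle and 4 for combination against vehicle. Palbociclib against vehicle gave 1 gene at a pseudocount of 0.1 and 3 after quantile normalization. Combination against vehicle gave 13 and 6 there, and 90 with FPKM of at least 5. The 13 genes between combination and OPG-Fc became 0 at a pseudocount of 0.1, with no filter, with quantile or median-of-ratios scaling, with the length and GC correction, without palbociclib replicates 1 and 3, and with libraries sharing a first number averaged, an alternative chosen after seeing the data, and 160 with only the groups compared. The 370 genes of the averaged effect became 224 with no filter, 184 with quantile normalization (1 gene of the wider list), 157 with median-of-ratios scaling, 70 with the length and GC correction, and 0 without palbociclib replicates 1 and 3 or with libraries averaged. The cause of these changes was not tested.

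The replicate number was not taken to pair the samples. Correlations of same-numbered tumours ran from -0.41 to 0.53, with 5 of 15 over 0.1. Those of different-numbered tumours ran from -0.53 to 0.43, with 10 of 30 over 0.1. Deviations within groups of 2 or 3 tumours depend on each other, so these correlations cannot exclude pairing. With the number as a replicate block, 0 genes passed between combination and OPG-Fc and 7 for the averaged effect, with 0 members in any comparison. Anln reversed for palbociclib against vehicle, from 0.76 (2.25 and passing without vehicle replicate 1) to -0.72 without vehicle replicate 2 and -0.55 with the length and GC correction as well, and Top2a for combination against palbociclib, from 0.15 to -0.01 without palbociclib replicate 2 and -0.10 without combination replicate 1. Of the values of named genes under an alternative, 42 passed, that of Anln among them, and 1121 kept direction and side. Depth is unknown, and 2 or 3 tumours a group limit every test.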
